A study of Mus musculus with 15 samples.

Results

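Fragments of the 4 tRNAs with a GTN anticodon, AspGTC, AsnGTT, HisGTG and TyrGTA, were examined in mouse sperm. The members are defined by their anticodon and were chosen with earlier results of these data known. They are 4 of the 47 tRNA fragment (tRF) entries of the small RNA-seq table. An entry carries the amino acid followed by the anticodon, and AspGTC stands for all fragments assigned to aspartate tRNAs that read GTC. The question was whether the 4 members moved together or apart with the diet of the paternal lineage.

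Small RNA of caudal epididymal sperm was sequenced from C57BL/6 mice (C57BL/6NTac in the study's methods) on a control diet (CO) or a lard-based obesity-inducing diet (OID). The F0 males ate CO (n = 3) or OID (n = 4) from 3 to 10 weeks of age and were then mated with females reared on CO. Their sons, the CO F1 (n = 4) and OID F1 (n = 4) males, ate only the control diet, so that in F1 the group name gives the diet of the father. The age of the F1 males at sperm collection is not given in the sources used here. All samples were treated with a buffer that lyses somatic cells. The samples were barcoded, pooled and separated on a gel, from which the band of 30 to 45 nucleotides was cut. The study's methods do not say whether all samples shared 1 pool or gel. The labels number the samples within a group and do not say which sons belong to which fathers, so the p-values below measure the spread between these samples.

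Transfer RNAs whose anticodon begins with G and continues with U are the substrates of the tRNA-guanine transglycosylase, a complex of QTRT1 and QTRT2. The enzyme exchanges the wobble guanine for queuine, a base that mammals take up from food and from gut microbes and do not make themselves. The resulting nucleoside, queuosine, is further mannosylated in the aspartate tRNA and galactosylated in the tyrosine tRNA. The aspartate tRNA is also methylated by DNMT2 at a cytosine of the anticodon loop, a reaction that queuosine is known to favor. Both modifications lie in the loop where tRNAs are commonly cleaved, and tRNA fragments are abundant in mature sperm. Sequencing of this kind counts fragments and does not read queuosine, so none of the values below is a measure of the modification.

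The sequences are shown for the triplet that defines the members. The anticodon is in capitals, sequences run 5′ to 3′, and all are RefSeq or GENCODE M21 sequences on GRCm38. Of the nuclear genes, the asparagine gene n-TNgtt7 is given whole (chr10:80249159-80249232, plus strand, overlapping an exon of Ndufs7). The histidine gene n-THgtg7 is given over its first 62 of 72 bases (chr3:96452495-96452556, plus strand). Nuclear aspartate and tyrosine genes are not shown here. The mitochondrial genes mt-Td (chrM:6942-7011, plus strand) and mt-Ty (chrM:5260-5326, minus strand) carry the GTC and GTA anticodons. The table does not say whether mitochondrial tRNAs were counted with the nuclear ones.
n-TNgtt7: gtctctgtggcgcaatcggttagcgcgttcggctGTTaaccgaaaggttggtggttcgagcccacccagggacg
n-THgtg7: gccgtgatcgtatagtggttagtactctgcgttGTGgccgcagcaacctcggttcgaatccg
mt-Td: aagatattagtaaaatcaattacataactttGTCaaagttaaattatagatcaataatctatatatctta
mt-Ty: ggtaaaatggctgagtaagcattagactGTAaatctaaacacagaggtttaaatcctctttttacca
In each of the 4 the wobble G follows a T, which the search for the anticodon required, and precedes the T of the GTN anticodon. The anticodon stands at positions 35 to 37 of n-TNgtt7 and 34 to 36 of n-THgtg7, near the middle of a tRNA of 72 to 74 bases. A fragment of 30 to 45 nucleotides therefore covers part of a tRNA, and the table does not say which part.

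Each member is the sum over many gene copies. RefSeq lists 16 loci for AspGTC on 6 chromosomes, 13 for AsnGTT on 7, 10 for HisGTG on 3 and 10 for TyrGTA on 4 chromosomes. Of the AspGTC loci, 5 lie on chromosome 1 between 171037029 and 171102442. Of the AsnGTT loci, 6 lie on chromosome 3 between 96322074 and 96497854, and 6 HisGTG loci lie on the same chromosome between 96410069 and 96500437, so these clusters overlap. Of the TyrGTA loci, 6 lie on chromosome 13 between 23425646 and 23467165. Tyrosine tRNA genes carry a short intron, and their loci are 86 to 93 bases long. Of the 49 loci, 11 lie in GENCODE M21 genes and 2 overlap an exon. The values do not tell the copies of one anticodon apart.

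The libraries held 17966 to 5363471 tRF reads, with medians of 271812 in CO F0, 1167991 in OID F0, 680741.5 in CO F1 and 3221587 in OID F1, so that the median depth was higher in OID in both generations. Only CO F0 replicate 3 and CO F1 replicate 2 held fewer than 100000. The values used are the authors' normalized values, in which each library's reads had been divided by its own size factor and 0.5 added. No 2 libraries of a group differed by as little as sampling noise (the lowest chi-square of 21 pairs was 32.2 for each degree of freedom). Mature miRNAs are shorter than the fragments that were cut out, so markers could be read only from stray miRNA entries. All 6 sperm miRNAs looked up (mir-10a, mir-10b, mir-34b, mir-34c, mir-191 and mir-30d) had reads, from 2 to 44 over the 15 libraries. All 7 miRNAs of other cells (mir-122, mir-126, mir-143, mir-145, mir-144, mir-451 and mir-223) also had reads, with 93 for mir-145 and 61 for mir-143 of smooth muscle and stroma. Their summed share of miRNA reads was 5.11 to 25.4% in CO F0, 0.398 to 33.3% in OID F0, 1.10 to 16.8% in CO F1 and 0.746 to 2.73% in OID F1. The share of the sperm list was 1.70 to 2.82% in CO F0, 0.398 to 1.28% in OID F0, 0 to 2.12% in CO F1 and 1.08 to 2.93% in OID F1. Summed reads of the sperm list were 0 to 25 per library, and those of the other list 1 to 26. The shares thus rest on few reads, and their part in the results below was not tested. A lower tRF value could come from less RNA per cell or from fewer cells of a type, which cannot be told apart in these bulk samples.

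The 4 members differed widely in level. Values count fragments of 30 to 45 nucleotides and are not divided by the length of the tRNA, so levels are compared here only by order. Ranked by value among the 47 tRFs of a library, AspGTC stood between 4 and 21, HisGTG between 7 and 15, AsnGTT between 16 and 24 and TyrGTA between 32 and 40 over the 15 libraries. TyrGTA was the lowest member in 15 of 15 libraries, and AsnGTT was below HisGTG in 15 of 15. AspGTC was the highest in 12, among them 7 of 7 CO libraries. In the other 3 libraries, OID F0 replicates 2 and 4 and OID F1 replicate 1, HisGTG was the highest. AsnGTT exceeded AspGTC in 1 library, OID F0 replicate 2.

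Together the members took 3.57% ± 2.54 (SD, n = 3) of the tRF reads of CO F0 males and 1.71% ± 0.549 (SD, n = 4) of those of OID F0 males. CO F1 males gave 4.37% ± 1.83 (SD, n = 4) and OID F1 males 2.66% ± 0.866 (SD, n = 4). The lowest share was 1.04% in OID F0 replicate 2 and the highest 6.78% in CO F1 replicate 1. The groups overlapped in both generations. Within this sum, the part of AspGTC was 53.9% ± 2.22 (SD, n = 3) for CO F0 and 34.5% ± 16.6 (SD, n = 4) for OID F0. For the sons it was 63.5% ± 6.70 (CO, SD, n = 4) and 55.5% ± 12.6 (OID, SD, n = 4). The AspGTC part ran from 51.6 to 56.1% in the CO F0 males and from 11.4 to 47.6% in the OID F0 males. The AsnGTT part had the opposite spread, from 4.79 to 17.8% in CO F0 and from 15.4 to 22.9% in OID F0.

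**Figure D1:**
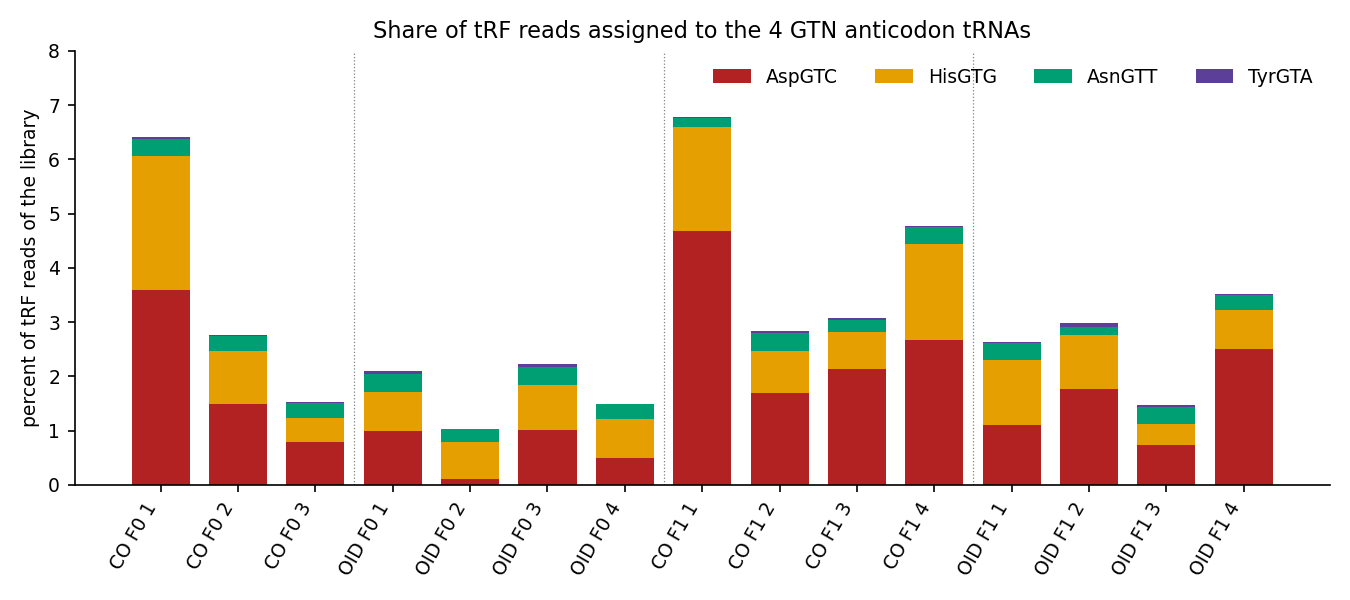
Share of each library's tRF reads assigned to the 4 GTN anticodon tRNAs. The x axis lists the 15 libraries by group and replicate, the y axis is the percent of tRF reads, and the bar segments are AspGTC, HisGTG, AsnGTT and TyrGTA from the bottom up. The sum runs from 1.04% in OID F0 replicate 2 to 6.78% in CO F1 replicate 1, and the TyrGTA segment is barely visible in any library.

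AspGTC, the aspartate member and the one that DNMT2 also modifies, was the member with the largest difference between diets in F0 and over both generations. Its normalized value was 19375, 10484 and 6842 in the CO F0 males and 5641, 1160, 5303 and 5694 in the OID F0 males, in replicate order. Every OID F0 male was below every CO F0 male, and OID F0 replicate 2 stood far below the other 3. In F1 it was 32367, 11372, 13388 and 13456 in CO and 8192, 11653, 5128 and 16326 in OID. The F1 groups overlapped, with 2 OID males inside the CO range and CO F1 replicate 1 far above the rest.

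AspGTC averaged 12234 ± 6447 (SD, n = 3) for CO F0 and 4450 ± 2200 (SD, n = 4) for OID F0, so the OID mean was 0.364 of the CO mean. On the log2(value + 1) scale, the difference in F0 was -1.57 (standard error 0.65, 95% interval -3.09 to -0.06), with a limma p of 0.0438 that became 0.206 after Benjamini-Hochberg adjustment over the 47 tRFs. The two-sided exact permutation test gave p = 0.0571, the smallest that 3 against 4 males allow. Without OID F0 replicate 2, the log2 difference was -1.01 (limma, adjusted p = 0.236). Lack of overlap with OID below CO was found for 10.6% of all 47 tRFs in F0, so AspGTC was 1 of 5.

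For the sons AspGTC averaged 17646 ± 9862 (CO, SD, n = 4) and 10325 ± 4808 (OID, SD, n = 4), so the OID mean was 0.585 of the CO mean. The log2 difference was -0.76 (standard error 0.43, 95% interval -1.71 to 0.18), with an adjusted limma p of 0.375 and a two-sided exact permutation p of 0.229. Without CO F1 replicate 1 it was -0.43, and without OID F1 replicate 3 it was -0.47. The F1 difference was therefore within the spread between males.

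Over both generations, with the generation as a term in the model, the log2 difference of AspGTC was -1.14 (standard error 0.39, 95% interval -1.95 to -0.32). In fold terms the interval runs from 0.259 to 0.799. The limma p was 0.00860 and the adjusted p 0.0506, just above the threshold of 0.05, and the exact permutation test within generations gave a two-sided p of 0.0106. AspGTC had the third lowest log2 fold change of the 47 tRFs in this comparison, the second lowest in F0 and the fourth lowest in F1. AspGTC thus missed the threshold narrowly, and the call moved with the processing. The adjusted limma p of AspGTC was under 0.05 in 7 of 24 alternatives and ranged from 0.00523 to 0.138. With log2 depth as a covariate the log2 difference was -1.97 (adjusted p = 0.00523, limma), and in the libraries with at least 100000 tRF reads it was -1.36 (adjusted p = 0.0327, limma). That depth filter removed only CO F0 replicate 3 and CO F1 replicate 2, which had the lowest AspGTC values of their groups (6842 and 11372). Leaving them out raises the CO means, so the wider difference is not separate evidence for AspGTC.

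AsnGTT, the asparagine member, was the least variable of the 4 among males of a group. Its normalized value was 1657, 1956 and 2361 in CO F0 and 1850, 2337, 1794 and 3028 in OID F0, with means of 1991 ± 353 (SD, n = 3) and 2252 ± 572 (SD, n = 4). In F1 it was 1176, 2252, 1464 and 1587 in CO and 2360, 1076, 2195 and 1764 in OID, with means of 1620 ± 455 (SD, n = 4) and 1849 ± 573 (SD, n = 4). The groups overlapped in both generations. The log2 difference was 0.16 in F0, 0.17 in F1 and 0.16 over both generations (standard error 0.23, 95% interval -0.33 to 0.66, limma, adjusted p = 0.608). With log2 depth as a covariate it was 0.54 in F0, 0.64 in F1 and 0.60 over both generations (limma, adjusted p = 0.0937), so the size of the AsnGTT difference depended on whether depth was in the model.

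HisGTG, the histidine member, was the one nearest to AspGTC in level. Its normalized value was 13325, 6814 and 3807 in CO F0 and 4030, 6568, 4345 and 8025 in OID F0. In F1 it was 13315, 5180, 4221 and 8855 in CO and 8858, 6545, 2699 and 4684 in OID. The groups overlapped in both generations, and 1 CO male in each generation stood above all OID males. The means were 7982 ± 4865 (SD, n = 3) and 5742 ± 1895 (SD, n = 4) in F0, and 7893 ± 4130 (SD, n = 4) and 5697 ± 2628 (SD, n = 4) in F1. The log2 difference was -0.35 in F0, -0.45 in F1 and -0.40 over both generations (standard error 0.33, 95% interval -1.10 to 0.29, limma, adjusted p = 0.376). Without CO F0 replicate 1, the F0 value turned to 0.11. Leaving out 1 library moved the F1 value between -0.71 and -0.14, the latter without OID F1 replicate 3, and the value over both generations between -0.59 and -0.23, the latter without CO F0 replicate 1.

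TyrGTA, the tyrosine member, was the rarest, and its reads were few in the shallow libraries. Its normalized value was 200.7, 124 and 241 in CO F0 and 326, 123, 226 and 166 in OID F0. In F1 it was 117, 188, 207 and 159 in CO and 169.9, 405, 285 and 220.5 in OID. These values stood for 5 to 3085 reads, with 5 reads in CO F0 replicate 3 and 10 in CO F1 replicate 2. The share of tRF reads in CO F0 replicate 3 was 0.0278%, with a 95% Wilson interval of 0.0119 to 0.0651% that covers counting error only. In F1, 3 of 4 OID males were above all CO males and the remaining 1 was inside their range.

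TyrGTA averaged 189 ± 59.4 (SD, n = 3) for CO F0 and 210 ± 87.8 (SD, n = 4) for OID F0. For the sons it averaged 168 ± 39.2 (CO, SD, n = 4) and 270.2 ± 101 (OID, SD, n = 4). The log2 difference was 0.11 in F0 (limma, adjusted p = 0.895) and 0.64 in F1 (standard error 0.33, 95% interval -0.08 to 1.36, limma, adjusted p = 0.358). The two-sided exact permutation p in F1 was 0.114. Over both generations the log2 difference was 0.40 (standard error 0.27, 95% interval -0.17 to 0.96, limma, adjusted p = 0.327). TyrGTA differences were thus within the spread between males.

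**Figure D2:**
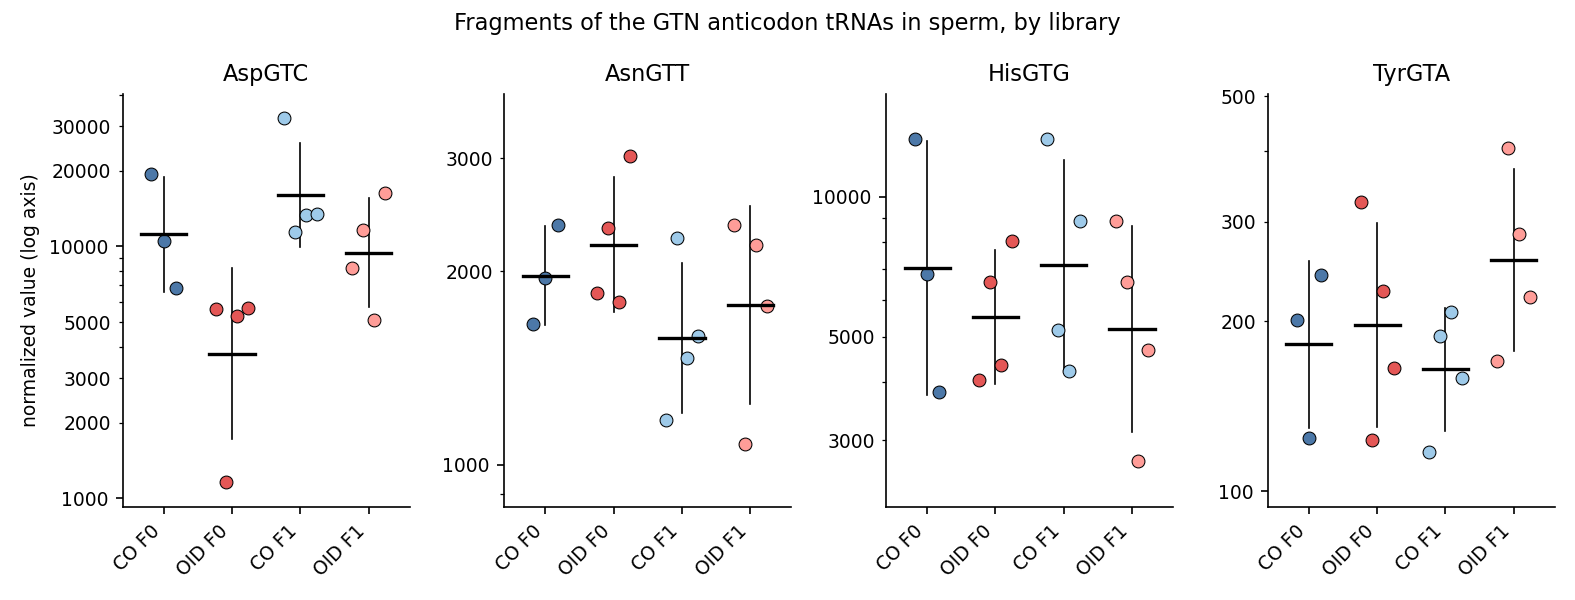
Normalized value of each member by library. The x axis gives the 4 groups, the y axis is the normalized value on a log axis that differs between panels, each point is 1 library, and the black lines are the mean of log2(value + 1) ± SD. AspGTC in OID F0 lies between 1160 and 5694, below all CO F0 males, whereas the groups of the other 3 members overlap in both generations.

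Set side by side, the members split 2 and 2 in each diet comparison. AspGTC and HisGTG had log2 fold changes below 0, and AsnGTT and TyrGTA had log2 fold changes above 0, in F0, in F1 and over both generations. At an adjusted limma p under 0.05, 0 of 4 members passed in F0, where 0% of the 47 tRFs did, 0 of 4 in F1, where 0% did, and 0 of 4 over both generations, where 10.6% did. At an unadjusted p under 0.05, 1 member (AspGTC) passed in F0, 0 in F1 and 1 (AspGTC) over both generations, against 21.3%, 17% and 27.7% of all tRFs. The median log2 fold change of the 4 was -0.12 in F0, -0.14 in F1 and -0.12 over both generations, beside 0.02, 0.08 and 0.05 over all 47. Log2 fold changes below 0 were found for 48.9% of all tRFs in F0 and 46.8% in F1, so a split of 2 and 2 is close to that of the table as a whole. AspGTC apart, the members lay in the middle of the 47 in F0, at ranks 17, 27 and 29 from the lowest. In F1 they lay at ranks 14 (HisGTG), 27 (AsnGTT) and 41 (TyrGTA). The 2 comparisons share no samples, but their directions for AsnGTT and TyrGTA in F0 turned below 0 when libraries were rescaled to their tRF sum without GlyGCC and GluCTC, to -0.19 and -0.23.

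**Figure D3:**
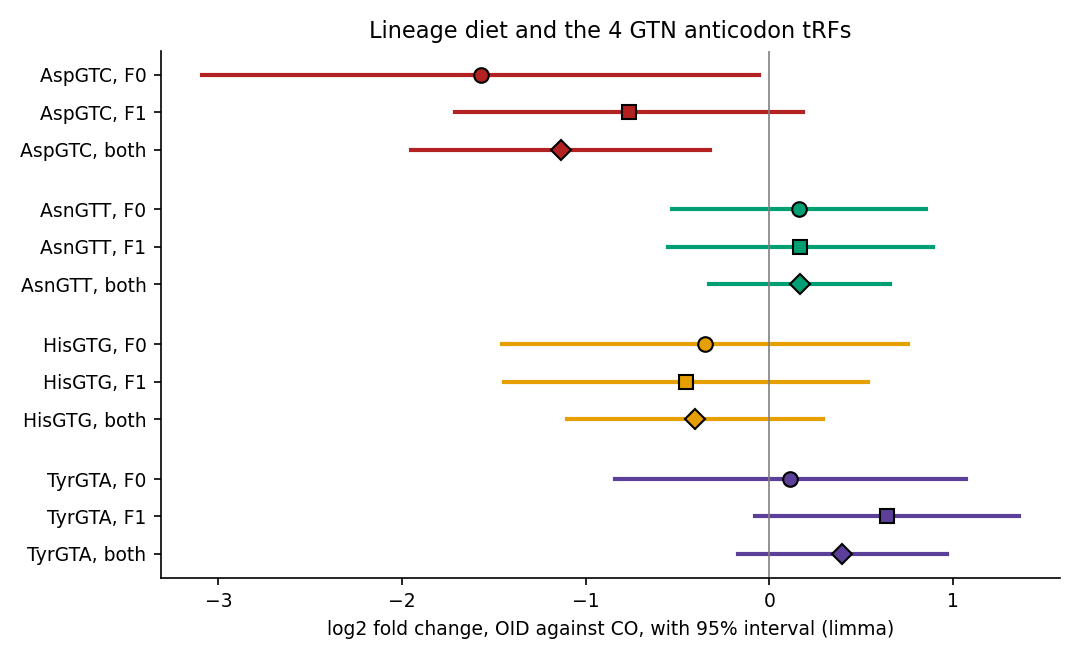
Log2 fold change of each member, OID against CO, in F0, in F1 and over both generations. Points are limma estimates on the log2(value + 1) scale and lines are their 95% intervals. The AspGTC intervals in F0 and over both generations lie below 0 before adjustment for 47 tests, and the intervals of the other members span 0.

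**Figure D4:**
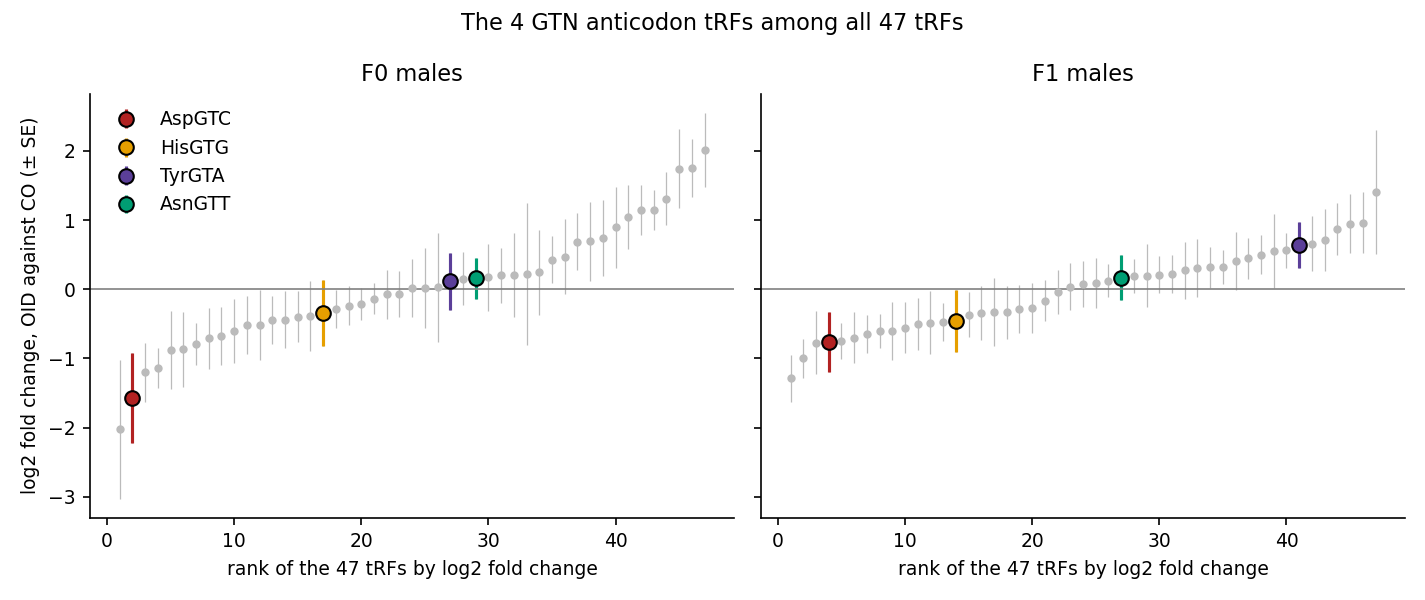
The 4 members among all 47 tRFs in F0 (left) and F1 (right). The x axis is the rank by log2 fold change, the y axis is the log2 fold change of OID against CO on the log2(value + 1) scale, and bars are ± 1 standard error. AspGTC holds rank 2 from the lowest in F0 and rank 4 in F1, and TyrGTA moves from rank 27 to rank 41.

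Ratios between members within a library do not depend on how that library was scaled, and they answer more directly whether the members moved apart. The 6 pairs were compared in F0, in F1 and over both generations, which gives 18 exact permutation tests, all two-sided. With all libraries, the largest of the 6 differences over both generations was that of AspGTC to TyrGTA, and without OID F1 replicate 2 that of AspGTC to AsnGTT was larger. The AspGTC to TyrGTA ratio was 96.1, 83.6 and 28.2 in CO F0 and 17.3, 9.33, 23.3 and 34.2 in OID F0. In F1 it was 273, 60.1, 64.2 and 84.1 in CO and 47.9, 28.7, 17.9 and 73.7 in OID. In each generation 3 of 4 OID males were below every CO male, and the remaining one was inside the CO range. The lowest CO F0 ratio, 28.2, rests on 5 TyrGTA reads.

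The geometric mean of AspGTC to TyrGTA was 61.0 in CO F0 against 18.9 in OID F0, and 97.1 in CO F1 against 36.7 in OID F1. The log2 difference was -1.69 in F0 (exact permutation p = 0.114), -1.40 in F1 (exact permutation p = 0.0857) and -1.54 over both generations (exact permutation p = 0.00653, adjusted over the 18 tests p = 0.118). A limma fit on the ratios gave a 95% interval of -2.48 to -0.59 over both generations and an adjusted p of 0.0323. That fit gave all 6 ratios the same standard error (0.47), although they derive from only 4 members. Its interval and p therefore do not measure the spread of this ratio alone. So this ratio passed the adjusted threshold in the limma fit and not in the exact test.

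AspGTC to HisGTG, the 2 most abundant members, was 1.45, 1.54 and 1.80 in CO F0 and 1.40, 0.177, 1.22 and 0.710 in OID F0. The F0 groups did not overlap, although OID F0 replicate 1 was just below CO F0 replicate 1 (log2 difference -1.22, exact permutation p = 0.0571, adjusted p = 0.309). Of the 6 pairs, 1 lacked overlap in F0 and 0 in F1. The share among all 1081 pairs of tRFs was not computed. AspGTC alone also lacked overlap in F0, as did 10.6% of the 47 tRFs with OID below CO. Without OID F0 replicate 2 the log2 difference of AspGTC to HisGTG was -0.58. In F1 the ratio was 2.43, 2.20, 3.17 and 1.52 in CO and 0.925, 1.78, 1.90 and 3.49 in OID, with overlap and a log2 difference of -0.31. Over both generations the log2 difference was -0.77 (exact permutation p = 0.0841, adjusted p = 0.309). In F0 the CO males kept AspGTC and HisGTG within a narrow ratio while their levels ranged widely, with both highest in CO F0 replicate 1 and both lowest in replicate 3.

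AspGTC to AsnGTT had geometric means of 5.66 in CO F0, 1.70 in OID F0, 10.2 in CO F1 and 5.34 in OID F1. The log2 difference over both generations was -1.33 (exact permutation p = 0.0351, adjusted p = 0.309). The 3 pairs without AspGTC differed over both generations by 0.57 on the log2 scale for AsnGTT to HisGTG (exact permutation p = 0.223), -0.21 for AsnGTT to TyrGTA (exact permutation p = 0.576) and -0.78 for HisGTG to TyrGTA (exact permutation p = 0.169). Of the 18 tests 0 passed after adjustment, and 2 had an unadjusted exact p under 0.05. A limma fit on the ratios, with its shared standard error, passed 1 of 18 after adjustment.

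**Figure D5:**
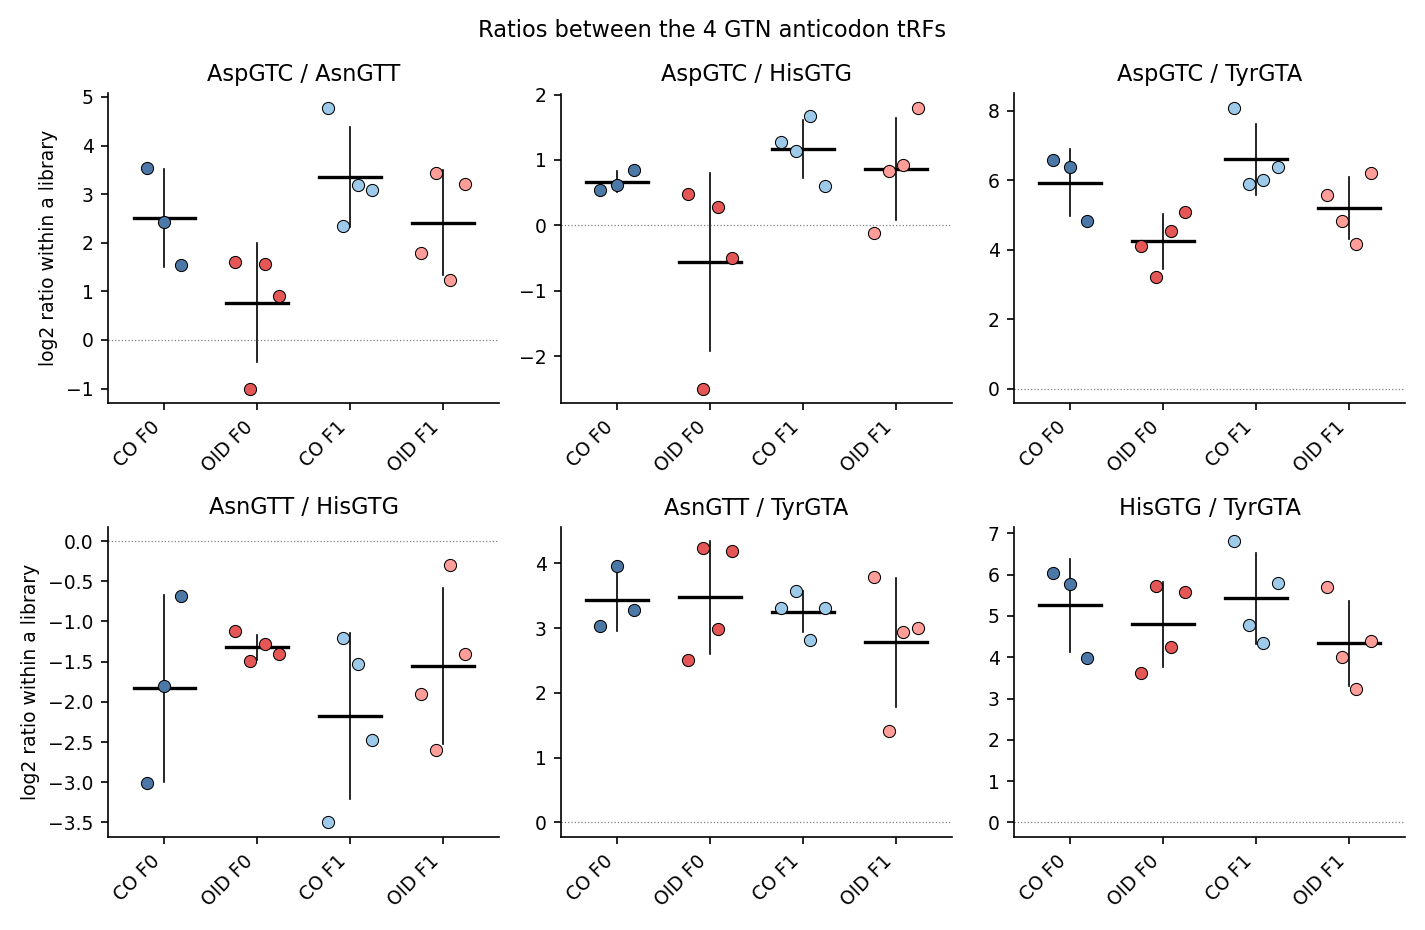
Log2 ratio of each pair of members within a library, by group. The y axis is the log2 ratio of normalized values + 1, each point is 1 library, thick lines are group means and thin lines ± SD, and the dotted line marks equal values. OID means lie below the CO means of the same generation in the 3 panels with AspGTC, and the OID and CO points overlap in all panels except AspGTC to HisGTG in F0.

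How alike the members varied among males of the same group was described by the within-group SD of the log2 ratio of 2 tRFs, which is small where the pair keeps a steady ratio. It was 0.738 for AsnGTT with TyrGTA, 0.855 for AspGTC with HisGTG, 0.895 for AsnGTT with HisGTG, 0.915 for AspGTC with TyrGTA, 1.07 for HisGTG with TyrGTA and 1.10 for AspGTC with AsnGTT. The median over all 1081 pairs of tRFs was 0.836, so 1 of the 6 member pairs kept a steadier ratio than the median pair. No member was among the 2 nearest of another. AspGTC was nearest to AlaTGC (0.448) and IleTAT (0.475). AsnGTT was nearest to MetCAT (0.330) and LysTTT (0.333). HisGTG was nearest to ArgCCG (0.457) and AlaCGC (0.505), and TyrGTA to SerAGA (0.369) and ArgTCT (0.478). Libraries with few reads add counting error to these values, most of all for TyrGTA. AspGTC itself varied more among males of a group than most tRFs, with a within-group SD of 0.847 on the log2 scale, the fifth widest of 47. HisGTG had 0.715, TyrGTA 0.503 and AsnGTT 0.397, beside a median of 0.578 over all tRFs.

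The diet difference of AspGTC was smaller in F1 than in F0, but the difference between generations was not larger than the spread. The interaction of diet and generation was 0.81 for AspGTC (standard error 0.77, 95% interval -0.81 to 2.43), 0.01 for AsnGTT, -0.10 for HisGTG and 0.53 for TyrGTA on the log2 scale, and all 4 had an adjusted limma p of 0.988. Leaving out 1 library moved the AspGTC value between 0.25, without OID F0 replicate 2, and 1.16, without CO F0 replicate 3. At an unadjusted p under 0.05, 0 of 4 members passed the interaction, against 4.26% of all tRFs.

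Sons were also compared with the males of the father generation on the same lineage diet. In the CO lineage, the log2 difference of F1 against F0 was 0.52 for AspGTC, -0.32 for AsnGTT, 0.02 for HisGTG and -0.15 for TyrGTA, with 0 of 4 members at an unadjusted limma p under 0.05 (2.13% of all tRFs). In the OID lineage AspGTC was higher in the sons by 1.33 (standard error 0.49, 95% interval 0.30 to 2.37, limma p = 0.0142, adjusted p = 0.249), although OID F0 and OID F1 overlapped (exact permutation p = 0.114). Without OID F0 replicate 2 the value was 0.77, and with log2 depth as a covariate it was 0.68 (limma, adjusted p = 0.863). The other members differed by -0.31 (AsnGTT), -0.08 (HisGTG) and 0.38 (TyrGTA), and AspGTC was the 1 member with an unadjusted limma p under 0.05, as were 17% of all tRFs. These comparisons share their groups with the diet comparisons above.

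Fragments of 4 tRNAs that also carry a wobble G but are not queuosine substrates, GlyGCC, CysGCA, PheGAA and SerGCT, were set beside the members. Over both generations their log2 fold changes were 0.27 for GlyGCC, -0.70 for CysGCA, -0.50 for PheGAA and 0.05 for SerGCT, so that they also split 2 and 2, with a median of -0.23. At an adjusted limma p under 0.05, 0 of 4 passed over both generations, where 10.6% of the 47 tRFs did. The lowest adjusted p was 0.113 for CysGCA. In F1, 3 of the 4 were below 0 with a median of -0.55. The PheGAA values of the 4 OID F1 males all lay below those of the CO F1 males, as was found for 8.51% of all tRFs. The two-sided exact permutation p for PheGAA was 0.0286, the smallest that 4 against 4 allow. However, the PheGAA value of CO F1 replicate 2 (75.6) rests on 4 reads. Its share of tRF reads was 0.0112%, with a Wilson interval of 0.00436 to 0.0288% that covers counting error only. That interval spans the PheGAA shares of the OID F1 males (0.00583 to 0.00735%), so the lack of overlap and its p are not secure against counting error.

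AspGTC also belongs with GlyGCC and ValAAC, the substrates of the methyltransferase DNMT2. Over both generations GlyGCC (0.27) and ValAAC (1.15) had log2 fold changes above 0 while AspGTC was at -1.14. ValAAC, like AspGTC, had an adjusted limma p of 0.0506 (exact permutation p = 0.0229), so both narrowly missed the threshold, in opposite directions. Of the list 0 of 3 passed, where 10.6% of the 47 tRFs did. The ValAAC difference was 2.01 in F0 and 0.41 in F1, where the groups overlapped (limma, adjusted p = 0.580). ValCAC (0.97) and ValTAC (1.19), which are not on the list, were also above 0 over both generations.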

How the data were processed

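The authors trimmed reads, aligned them to mm10 and assigned them to tRNAs with weights for shared reads. The processing notes of the submitters also name Bowtie2 2.3.4.1 and DESeq2. The deposited table holds a normalized signal for 47 tRFs, 4 mature tRNA entries and 164 miRNAs in 15 libraries. The signal is reads divided by a size factor, plus 0.5. The reads were recovered as whole multiples within 0.001 for 705 of 705 tRF values. The study's methods describe weighted reads, and whether these whole numbers are rounded weighted reads is not stated. Counting error and Wilson intervals treat them as plain counts. Recovered counts gave depth (17966 to 5363471 tRF reads), read shares, counting error and the input of limma-voom, and the other tests used the normalized values.

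Groups came from the sample labels. Comparisons used limma 3.58.1 (R 4.3.3) on log2(value + 1), which understates changes of low tRFs, with Benjamini-Hochberg adjustment over 47 tRFs at 0.05. Single values and ratios used two-sided exact permutation tests (scipy 1.17.1). The scripts were tested on simulated data. The deviations from the group means of CO F0 and CO F1 males with the same number had correlations of 0.530, 0.196 and 0.251. Correlations between males with different numbers were not computed, so this check cannot tell whether the numbers pair them. The labels do not say that they do. In CO F1 against CO F0, the replicate block moved the count of called tRFs from 0 to 1 and no member was called.

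The members and lists were chosen with earlier results of these data known. Named tRFs are the 4 members, 2 lists fixed by tRNA biochemistry (wobble G without queuosine, and DNMT2 substrates), and the 2 tRFs nearest to each member by within-group SD of the log2 ratio. Alternatives were pseudocounts of 0.1 and 10, a mean value of at least 100, 2 other scalings, limma-voom, a depth covariate, only libraries of at least 100000 reads, all 4 groups in 1 fit, a replicate block, and each library left out in turn.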

Additional observations from a re-analysis of the deposited data

Results flagged for a closer look

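AspGTC in OID F0 replicate 2 was far below the other 3 males of its group: its normalized value was 1160 against 5303 to 5694, and on the log2(value + 1) scale its gap to the nearest male was 0.9553 of the whole range of the group. AspGTC in CO F1 replicate 1 was far above the others of its group, with 32367 against 11372 to 13456 and a gap of 0.8392 of the range on the same log2 scale. Of 30 groups of 4 males tested (12 of member values and 18 of ratios), 2 passed the critical value, where about 1 in 20 groups, or 1.5 of 30, would pass by chance. Both libraries widen the AspGTC difference of their generation, which was -1.01 without the former and -0.43 without the latter on the log2 scale.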

How the results depend on the processing

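Precision was limited by 3 to 4 males per group and, for TyrGTA, by as few as 5 reads. Negative binomial count models (edgeR), planned as an alternative, were not run on the recovered reads, and limma-voom was used there instead. Of 1090 values under alternatives, 1007 were rated the same and 47 turned direction. For a difference, the same means its direction and its side of the threshold. For a count or a within-group SD, it means a similar size and not an identical value. The cause of the changes below was not tested.

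The count of members called over both generations was 0 and became 1, AspGTC, with a pseudocount of 10 (adjusted p = 0.0358, limma), a mean value of at least 100 (0.0414), limma-voom (0.0494), depth as a covariate (0.00523) and libraries with at least 100000 reads (0.0327), and ranged from 0 to 1 when 1 library was left out, with 1 without CO F1 replicate 2 (0.0314) or OID F1 replicate 4 (0.0360). CO F0 replicate 3 and CO F1 replicate 2, the libraries under 100000 reads, held the lowest AspGTC values of their groups, and OID F1 replicate 4 held the highest of its group. Leaving out any of these widens the AspGTC difference. The count of tRFs called of 47 in F0 was 5 with limma-voom and 6 with all 4 groups in 1 fit, and 0 to 2 with 1 library left out. In F1 it was 0 to 1 with 1 library left out. At an unadjusted limma p under 0.05 there were 10 in F0 and 8 in F1. Over both generations 5 tRFs were called, 3 higher and 2 lower. This became 8 with a pseudocount of 10, 8 with limma-voom, 13 with depth as a covariate, 3 (1 higher and 2 lower) when rescaled without GlyGCC and GluCTC, 7 (5 higher and 2 lower) with median of ratios scaling, 2 with the replicate block, and 2 to 10 with 1 library left out. In F1 against F0 it was 0 to 2 in OID with 1 library left out.

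Rescaling without GlyGCC and GluCTC moved the median log2 fold change of all 47 tRFs in F0 by -0.35. Relative to that median, AspGTC was at -1.59, AsnGTT at 0.14, HisGTG at -0.37 and TyrGTA at 0.10 in F0 under each scaling.

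With depth as a covariate, AspGTC was at -1.42 in F1 and, over both generations, HisGTG was at -0.69 and TyrGTA at 0.36. F1 against F0 gave 0.11 for AspGTC in CO and 0.68 in OID. With 1 library left out, F1 against F0 in CO ranged from 0.17 to 0.92 for AspGTC, the TyrGTA interaction from 0.30 to 0.80, TyrGTA in F1 from 0.42 to 0.84, and AsnGTT from 0.0065 to 0.29 in F0, 0.029 to 0.41 in F1 and 0.094 to 0.28 over both generations.

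Directions turned for small differences. In F0, TyrGTA turned to -0.23 when rescaled and -0.15 with depth as a covariate, and ranged from -0.16 to 0.34 with 1 library left out, while AsnGTT turned to -0.19 when rescaled and HisGTG ranged from -0.79 to 0.11. In the interaction, AsnGTT turned to -0.10 with limma-voom and -0.055 with depth (-0.13 to 0.25 with 1 library left out), and HisGTG to 0.32 when rescaled and 0.18 in the deeper libraries (-0.57 to 0.34). In F1 against F0 in CO, HisGTG turned to -0.019 with median of ratios scaling, -0.18 when rescaled, -0.37 with depth, -0.27 in the deeper libraries and -0.083 with the replicate block (-0.42 to 0.48), and TyrGTA to 0.030 with depth (-0.42 to 0.056). In OID, HisGTG turned to 0.15 when rescaled and 0.22 with depth (-0.34 to 0.23), and TyrGTA to -0.085 with depth.

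Of the 18 ratio tests, 1 passed with limma (AspGTC to TyrGTA over both generations, adjusted p = 0.0323) and 2 with limma and the replicate block (AspGTC to TyrGTA, adjusted p = 0.0123, and AspGTC to AsnGTT, adjusted p = 0.0408). The limma fit without the block used 1 standard error for all ratios of a comparison, so its p-values do not measure the spread of each ratio alone. AsnGTT to TyrGTA in F0 turned to -0.027 in the deeper libraries and -0.19 with the replicate block. With 1 library left out, this ratio ranged from -0.21 to 0.37 in F0 and -0.38 to 0.017 over both generations, AspGTC to HisGTG in F1 from -0.62 to 0.015, and AsnGTT to HisGTG in F0 from -0.079 to 1.08. AspGTC to HisGTG ranged from -1.57 to -0.58 in F0 and -0.94 to -0.44 over both generations, AspGTC to TyrGTA in F1 from -1.74 to -0.90, AsnGTT to HisGTG over both generations from 0.27 to 0.85, and HisGTG to TyrGTA from -1.10 to -0.55.

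Of all 14 pairs of same-numbered males, 6 had a correlation over 0.1, and the range was -0.479 to 0.530. Without the values for differently numbered males, these do not show whether the numbers pair any groups. With the replicate block AspGTC over both generations had an adjusted limma p of 0.0516.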
